A study of Mus musculus with 8 samples.

Results

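Cystatins and serpins are protein families named for their protease inhibitors. They were chosen as all gene symbols of the deposited tables that start with serpin or cstdc, or with cst followed by digits and then a, b or nothing. Symbols were matched in lower case (cstdc2, serpina3n). The rule found 14 of the 2243 gene symbols in the tables, 7 cystatins and 7 serpins, and 15 of the 2783 transcripts, since Cst12 had a pair of transcripts. With only 1 digit allowed after cst the rule finds 12 genes, and with Cstb added it finds 15. RefSeq lists 78 protein-coding mouse genes of this naming, 15 cystatins and 63 serpins. The set was chosen by the read counts of Cstdc2 and Serpina3n: it was proposed because Cstdc2 and Serpina3n had fewer reads in busulfan-treated Tent5c dcat/dcat than in busulfan-treated Tent5c wt/wt testes. That comparison is therefore given below as a description without a test, and so is any change of these 2 genes that uses busulfan libraries.

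RNA of whole testes from adult male mice was read directly on nanopores, so that a read stands for 1 RNA molecule and its current gives an estimate of the poly(A) tail. The mice were Tent5c wt/wt (wt) or Tent5c dcat/dcat (dcat) and received a single intraperitoneal injection of busulfan at 20 mg/kg or of its vehicle, a mixture of dimethyl sulfoxide and water, and testes were taken 4 weeks later. TENT5C is a cytoplasmic poly(A) polymerase, the dcat allele encodes the protein without catalytic activity in every cell that expresses it, and busulfan alkylates DNA and depletes dividing germ cells. Each of the 4 groups held 2 mice and 2 libraries, and the replicate number names the multiplexed library that a mouse was sequenced in, with 1 mouse of each group in both.

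Many cystatins are small proteins that bind in the active site of cysteine proteases such as the lysosomal cathepsins and block it. Whether each member here inhibits a protease was not examined. Serpins mostly inhibit serine proteases, by offering a loop that the protease cleaves and that then traps it, and some inhibit cysteine proteases. In the testis, several cystatins encoded next to cystatin C are known mainly from Sertoli cells or germ cells, and Serpina5 is known for its need in male fertility. The study binned the tails of germ cells as near 60 nt, for 30 to 120 nt, and near 150 nt, for 120 to 210 nt, and the shorter bin is used here for whole testes as a description.

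The 8 libraries held 29574 to 129074 reads, the extremes being the 2 dcat vehicle libraries, so that a count of 0 allowed up to 23.2 to 101 CPM, a count scaled to library size. The cystatins and serpins took 4347 of 621202 reads, 0.235% to 0.278% of a vehicle library, 1.26% and 1.27% of the wt busulfan libraries and 0.943% and 0.789% of the dcat busulfan libraries. The 10 late spermatid marker genes, all of them measured, summed to 92852 to 116360 CPM with vehicle, against 7903 and 10240 for wt mice and 20380 and 37456 for dcat mice with busulfan. The 8 Leydig markers measured of 9 summed to 3711 to 6830, 43859 and 49235, and 28512 and 24126 CPM for those 3 kinds of library. Insl3 was among them. The 6 Sertoli markers measured of 10, counted without Cst9 and Cst12 but with Ctsl, summed to 2193 to 4024, 26933 and 26381, and 23243 and 15905 CPM. The Sertoli markers Sox9, Amh, Rhox5 and Fshr, the Leydig marker Lhcgr, and all markers on the endothelial and liver lists were not among the transcripts. CPM is a share of the reads of a library. In these whole testes, more cells of a type, more RNA per cell and less RNA from other cells therefore cannot be told apart in any count below. The dcat allele leaves a Tent5c transcript, so the read counts could not be used to check the genotypes, and the base changes were not analysed here.

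All 7 cystatin genes lay on mouse chromosome 2 (GRCm38), in a row that with the relative Cstl1 ran from 148750358 to 148875576, 125 kb in all. Of the 7 serpins, 5 lay on chromosome 12 from 104101113 to 104414329 (313 kb), Serpinb1a on chromosome 13 (32842092 to 32851185) and Serping1 on chromosome 2 (84765387 to 84775404). The 15 transcripts had 3 to 8 exons and were all annotated as protein-coding. RefSeq promoters, 250 bases before to 50 bases after the start on the strand of the gene, were found for 12 of the 14 genes. The following 6 are shown because the comparisons turn on them: Cst12 and Cst9, which rose after busulfan, with Cst13, which lies between them and fell, and Cstdc2 and Serpina3n, which chose the set, with Serpina3a, a paralog of the latter. Capitals mark matches on either strand to the TATA box (TATAAA), the CCAAT box (CCAAT), the androgen receptor core motif (AGAACA), the steroidogenic factor 1 site (AAGGTCA), the cAMP response element core motif (TGACG) and the STAT site (TTCNNNGAA), overlapping matches included.
Cst12 promoter (chr2:148789115-148789414, plus strand, GRCm38.p6): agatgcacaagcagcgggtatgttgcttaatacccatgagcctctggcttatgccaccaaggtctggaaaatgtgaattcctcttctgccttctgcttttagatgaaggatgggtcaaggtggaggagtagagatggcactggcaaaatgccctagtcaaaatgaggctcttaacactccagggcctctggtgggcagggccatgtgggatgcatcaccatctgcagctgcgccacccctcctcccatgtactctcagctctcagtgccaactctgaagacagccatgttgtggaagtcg
Cst13 promoter (chr2:148819849-148820148, plus strand, GRCm38.p6): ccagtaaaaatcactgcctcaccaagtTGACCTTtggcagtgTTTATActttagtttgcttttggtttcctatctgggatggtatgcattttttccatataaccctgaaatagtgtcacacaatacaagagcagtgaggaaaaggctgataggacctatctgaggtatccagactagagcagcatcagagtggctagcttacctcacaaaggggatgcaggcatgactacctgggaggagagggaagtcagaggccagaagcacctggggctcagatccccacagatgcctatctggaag
Cst9 promoter (chr2:148834897-148835196, plus strand, GRCm38.p6): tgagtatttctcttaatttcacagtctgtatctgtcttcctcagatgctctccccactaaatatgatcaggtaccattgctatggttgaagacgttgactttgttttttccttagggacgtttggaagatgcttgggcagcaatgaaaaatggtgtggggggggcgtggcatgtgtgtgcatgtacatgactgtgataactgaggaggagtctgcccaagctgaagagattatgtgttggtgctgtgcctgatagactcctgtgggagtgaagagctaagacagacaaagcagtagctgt
Cstdc2 promoter (chr2:148850885-148851184, minus strand, GRCm38.p6): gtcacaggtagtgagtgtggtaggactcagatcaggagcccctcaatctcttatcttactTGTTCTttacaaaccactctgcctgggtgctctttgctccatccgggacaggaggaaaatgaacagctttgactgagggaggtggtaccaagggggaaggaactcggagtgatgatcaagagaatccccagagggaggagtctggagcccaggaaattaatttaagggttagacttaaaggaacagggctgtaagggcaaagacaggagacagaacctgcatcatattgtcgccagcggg
Serpina3a promoter (chr12:104112474-104112773, plus strand, GRCm38.p6): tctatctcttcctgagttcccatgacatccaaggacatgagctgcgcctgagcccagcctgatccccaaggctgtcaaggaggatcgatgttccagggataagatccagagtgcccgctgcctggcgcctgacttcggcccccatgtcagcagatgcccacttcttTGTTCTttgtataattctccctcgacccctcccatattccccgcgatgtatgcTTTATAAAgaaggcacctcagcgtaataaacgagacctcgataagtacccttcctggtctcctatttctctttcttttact
Serpina3n promoter (chr12:104406458-104406757, plus strand, GRCm38.p6): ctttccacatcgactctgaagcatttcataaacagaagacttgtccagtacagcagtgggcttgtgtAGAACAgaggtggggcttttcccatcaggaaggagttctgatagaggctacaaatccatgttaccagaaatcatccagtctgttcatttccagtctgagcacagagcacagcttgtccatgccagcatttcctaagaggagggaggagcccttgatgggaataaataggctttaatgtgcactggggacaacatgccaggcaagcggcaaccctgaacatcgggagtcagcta

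The androgen receptor core motif was held by 7 of the 12 promoters (Cst3, Cstdc1, Cstdc2, Serpina3a, Serpina3c, Serpina3n and Serpina5), against 19.0% of all 32851 promoters in the table. In Cstdc2 it began 190 bases, in Serpina3n 183 bases and in Serpina3a 84 bases before the start. The TATA box was held by 3 (Cst13, Serpina3a and Serpina3c; 13.6% of all), the steroidogenic factor 1 site by 2 (Cst13 and Cst8; 4.72% of all), the CCAAT box by 1 (Serpina5; 37.4% of all) and the STAT site by 1 (Serpina3g; 8.30% of all). The cAMP response element core motif was in 0 of the 12, against 20.8% of all. Cst12 and Cst9 held none of these motifs in this window, and Cst13, which lies between them, moved the opposite way. A match is a run of letters, and binding was not measured.

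Poly(A) tails are added downstream of a hexamer near the end of the transcript. The last 30 annotated bases of several transcripts are shown as the annotation gives them. Capitals mark the hexamer AATAAA or, where it is absent, its variant ATTAAA. Cstdc2 also holds an ATTAAA upstream of its AATAAA, which is left in lower case. Where the reads themselves ended was not analysed here. They were picked for the tails described below: Cst9 and Cst12 carried the longest among the 15 transcripts, Serpina3c the shortest of the serpin A3 transcripts, and Cst3 tails that were shorter after busulfan. Both Cst12 ends are shown because the transcripts end at different bases.
Cst9 3′ end (chr2:148838709-148838738, plus strand, GRCm38): aatagctcATTAAAtattgcatttctgaac
Cst12 3′ end (chr2:148793517-148793546, plus strand, GRCm38): atcactctgtgtgaagtgcataatattgag
Cst12 (second transcript) 3′ end (chr2:148793408-148793437, plus strand, GRCm38): acaATTAAAgtcaacttacaaaacattctg
Cst3 3′ end (chr2:148871722-148871751, minus strand, GRCm38): gctcaATTAAAaaaaaaaaactcctttggc
Cstdc2 3′ end (chr2:148846711-148846740, minus strand, GRCm38): ttagatcattaaacaccagcatgtAATAAA
Serpina3n 3′ end (chr12:104414300-104414329, plus strand, GRCm38): gagcaaaagatcAATAAAcatataactgca
Serpina3c 3′ end (chr12:104146382-104146411, minus strand, GRCm38): ggccctctgacctatatcctattaacagtc

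Of the 15 transcripts, 6 had AATAAA in these 30 bases (40.0%, against 55.6% of the 2738 transcripts of the tables found in the annotation) and 5 had only ATTAAA (33.3%, against 12.4%). Those with only ATTAAA were 4 cystatin transcripts, the ones of Cst3, Cst9 and Cstdc1 and the second of Cst12, and that of Serpina3a. Serpina3c was the 1 serpin with neither. The AATAAA of Cstdc2 and that of Serping1 ended at the last annotated base, and no base downstream of it is annotated.

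The RNA of these genes that the testis held after busulfan, in wt mice, was examined first. A transcript entered the deposited tables only with 10 or more reads in each library of some group. Of the 15, 11 met this only in busulfan groups and Cst13 only in vehicle groups, so that the direction of these 12 was largely set by their presence in the tables. Cst3, Cst8 and Cst9 met it in groups of both kinds, and of these Cst3 and Cst9 were higher and Cst8 lower after busulfan in wt. Of the 13 transcripts tested in wt, 11 were higher, where 35.4% of all 2783 transcripts were, and 2 were lower, where 38.3% were (edgeR quasi-likelihood test, adjusted p under 0.05). Among all 1207 transcripts that met the filter only in busulfan groups 69.8% were higher in wt, among the 898 that met it only in vehicle groups 94.8% were lower, and among the 678 that met it in both kinds 21.1% were higher and 31.7% lower. The counts of members are therefore a description, and nothing is read from them. For the 12 transcripts that met the filter only in busulfan or only in vehicle groups, the adjusted p-values below are a description too. They cannot test a direction that the filter had largely set. Over all 15 the median log2 fold change was 2.79, against 0.09 over all transcripts. This median includes Cstdc2, Serpina3n and the transcripts whose direction the filter had largely set. It is a description too, and nothing is read from it.

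**Figure D1:**
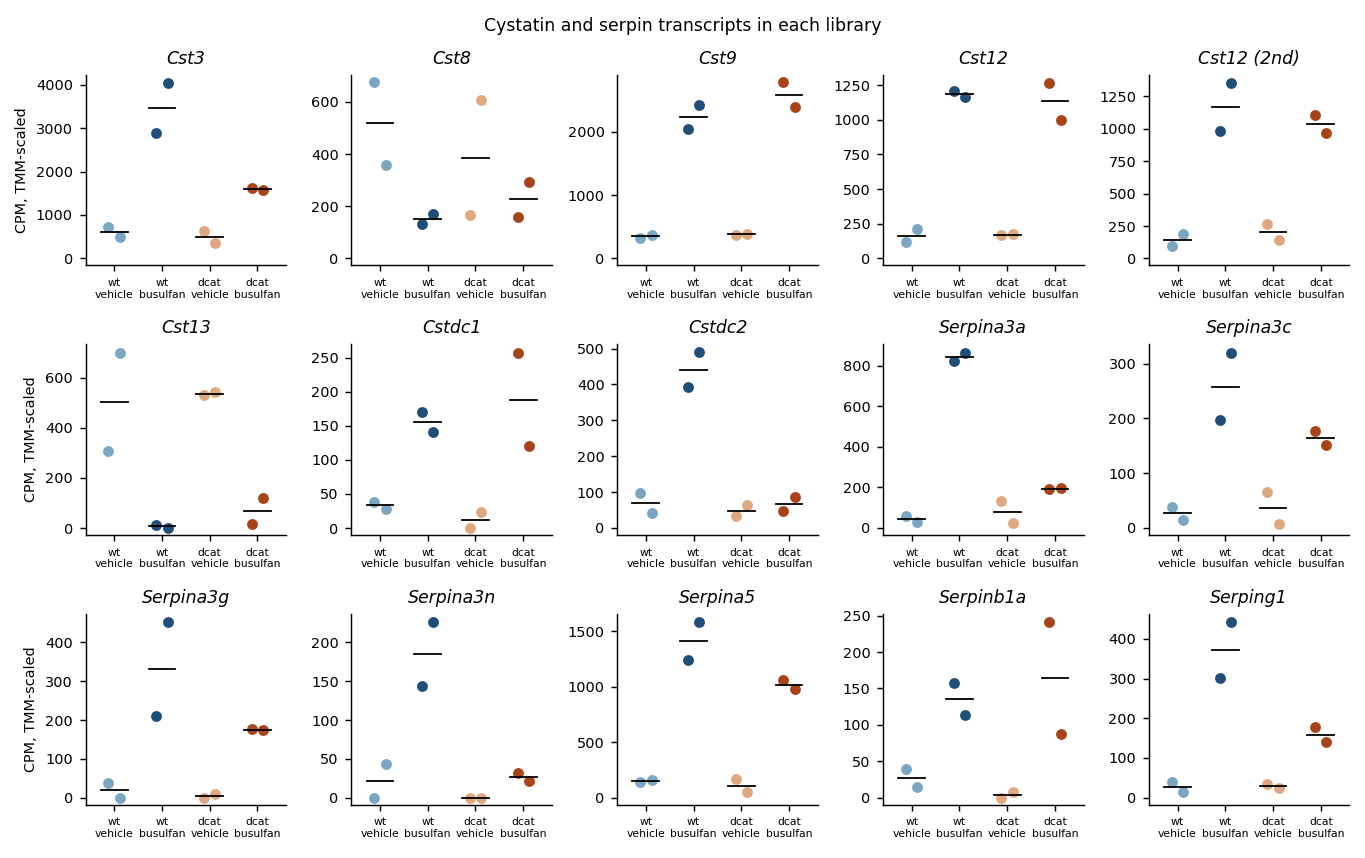
CPM (counts scaled to library size by TMM) of the 15 cystatin and serpin transcripts, with 1 point per library, a line at the mean of the 2 libraries of a group and an axis of its own in each panel. Cst13 fell from 310 and 701 CPM with vehicle to 13.1 and 0 with busulfan in wt, and Cst9, its neighbour, rose from 329 and 372 to 2042 and 2420.

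Cst9 encodes testatin, a cystatin known from Sertoli cells. It had 329 and 372 CPM with vehicle against 2042 and 2420 with busulfan among wt mice, and 365 and 391 with vehicle against 2778 and 2391 with busulfan among dcat mice. Both busulfan groups lay far above both vehicle groups, and the 2 genotypes overlapped after busulfan. The log2 fold change of busulfan over vehicle was 2.66 (SE 0.36, edgeR adjusted p = 1.45e-06) in wt and 2.75 (SE 0.36, edgeR adjusted p = 1.15e-05) in dcat testes.

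Cst12 encodes a further testis cystatin. Its transcript with the most reads had 116 and 214 CPM with vehicle against 1204 and 1167 with busulfan among wt mice, and 166 and 176 with vehicle against 1268 and 999.8 with busulfan among dcat mice. It rose by a log2 fold change of 2.79 in wt (SE 0.42, edgeR adjusted p = 5.3e-06) and of 2.70 in dcat (SE 0.43, edgeR adjusted p = 5.66e-05), again with no overlap between busulfan and vehicle. Its second transcript shared 535 exonic bases with the first, of 644 and 546, so that reads could fall on either. It rose by 2.99 in wt and 2.52 in dcat, with edgeR adjusted p of 4.67e-06 and 0.000145. Both transcripts met the filter only in busulfan groups, so that these p-values do not test their direction.

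Cst3 encodes cystatin C, a secreted inhibitor of cathepsins made by most cell types. It had 717 and 486 CPM with vehicle against 2879 and 4048 with busulfan among wt mice, and 630.5 and 351 with vehicle against 1622 and 1565 with busulfan among dcat mice. Unlike Cst9 and Cst12, its 2 dcat busulfan libraries lay below both wt busulfan libraries. It rose by 2.54 in wt (SE 0.37, edgeR adjusted p = 2.77e-06) and by 1.82 in dcat (SE 0.38, edgeR adjusted p = 0.000526). Whether the 2 rises differ was not tested.

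Cstdc1, a gene with a cystatin domain, had 2 and 2 reads with vehicle against 13 and 15 with busulfan among wt mice, and 0 and 3 with vehicle against 16 and 11 with busulfan among dcat mice. With so few vehicle reads, its rise is given as the ratio of pooled reads per scaled library, which was 4.66 in wt (exact 95% counting interval 1.63 to 18.3, edgeR adjusted p = 0.00886) and 9.06 in dcat (2.79 to 46.7, edgeR adjusted p = 0.00142). Cstdc1 met the filter only in busulfan groups, so that these p-values do not test its direction. The wt call was lost without wt vehicle replicate 2 (log2 fold change 2.22) and with DESeq2 (2.12).

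Cst13 fell after busulfan in both genotypes and Cst8 in wt. Both are cystatins known from male germ cells, Cst8 also from the epididymis. Cst13 had 16 and 49 reads with vehicle against 1 and 0 with busulfan among wt mice, and 16 and 68 with vehicle against 1 and 11 with busulfan among dcat mice. Nearly all reads were gone after busulfan except in dcat busulfan replicate 2, the library with the higher of the 2 dcat late spermatid sums (37456 against 20380 CPM). The pooled ratio of vehicle over busulfan was 97.6 in wt (exact 95% counting interval 16.9 to 3915, edgeR adjusted p = 2.54e-06) and the log2 fold change of busulfan over vehicle in dcat was -2.81 (SE 0.60, edgeR adjusted p = 0.000546). Cst13 met the filter only in vehicle groups, so that these p-values do not test its direction.

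Cst8 had 35 and 25 reads with vehicle against 10 and 18 with busulfan among wt mice, and 5 and 76 with vehicle against 10 and 27 with busulfan among dcat mice. The wt groups did not overlap, while the 2 dcat vehicle libraries lay at 166 and 607 CPM, on both sides of dcat busulfan replicate 2 at 293 CPM. It fell in wt by 1.73 on the log2 scale (SE 0.52, edgeR adjusted p = 0.00463), a call that was lost without wt vehicle replicate 1 (-1.02). In dcat the value was -0.94 (SE 0.50, edgeR adjusted p = 0.102), which turned to 0.56 without dcat vehicle replicate 2. The relative Cstl1, at the far end of the same row of genes, went from 20 and 15 reads with vehicle to 0 in both busulfan libraries of wt mice, at least 17.5-fold lower against a floor of 3 reads over the group, and 5 and 25 against 1 and 10 in dcat (-1.43, edgeR adjusted p = 0.0489). Cstl1 met the filter only in vehicle groups, so that its direction was largely set by it.

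**Figure D2:**
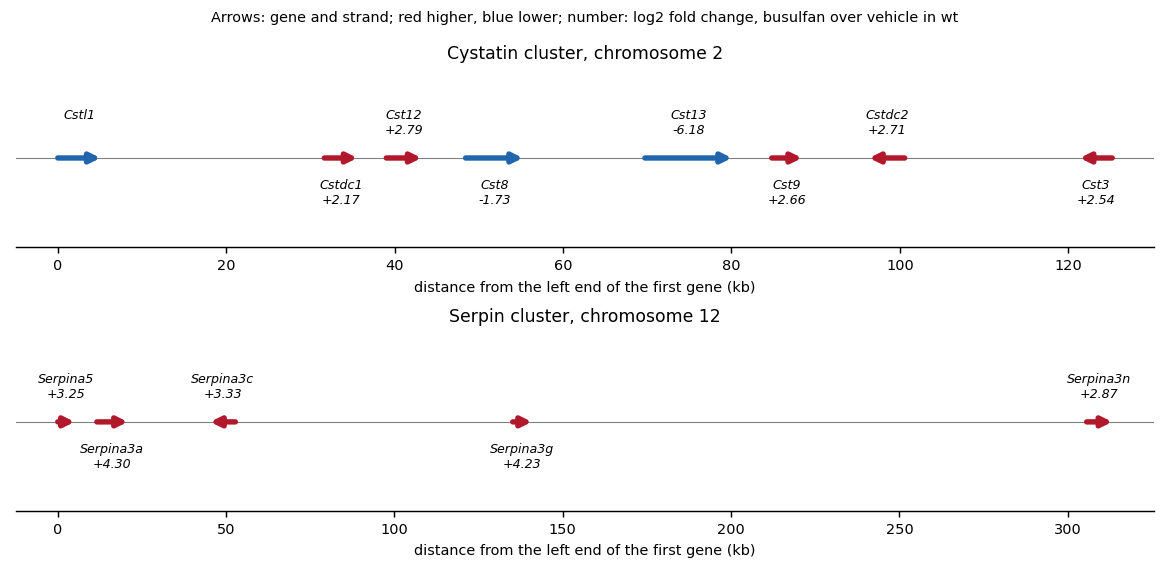
Genes of the cystatin row and of the serpin row as arrows along the strand, by distance in kb from the left end of the first gene, red where the log2 fold change of busulfan over vehicle in wt was positive and blue where it was negative, with its value. Cst8 (-1.73) and Cst13 (-6.18) lie side by side between Cst12 (2.79) and Cst9 (2.66), while the 5 serpins of chromosome 12 lie between 2.87 and 4.30. Fitted values of genes with at most 3 reads in each library of a group depend on the prior count of the fit, and that of Cstl1, with 0 reads after busulfan, is left out.

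Among the serpins, Serpina5 had the most reads. It encodes the protein C inhibitor, a secreted inhibitor of serine proteases. It had 136 and 157 CPM with vehicle against 1243 and 1582 with busulfan among wt mice, and 166 and 47.9 with vehicle against 1060 and 978 with busulfan among dcat mice. It rose by 3.25 in wt (SE 0.45, edgeR adjusted p = 2e-06) and by 3.70 in dcat (SE 0.51, edgeR adjusted p = 1.69e-05). Serpina5 met the filter only in busulfan groups, so that these p-values do not test its direction. No busulfan library overlapped a vehicle library, and the dcat busulfan libraries lay below the wt ones.

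The serpin A3 paralogs, relatives of human antichymotrypsin that are multiplied in the mouse, had almost no reads after vehicle. All of them met the filter only in busulfan groups, so that the p-values given for them do not test their direction. Serpina3a had 3 and 2 reads with vehicle against 63 and 92 with busulfan among wt mice, and 4 and 3 with vehicle against 12 and 18 with busulfan among dcat mice. Its pooled ratio of busulfan over vehicle was 20.6 in wt (exact 95% counting interval 8.65 to 64.4, edgeR adjusted p = 2.12e-06), and its log2 fold change in dcat was 1.95 (SE 0.67, edgeR adjusted p = 0.0152). The dcat call was lost without dcat vehicle replicate 2 (0.62) and with DESeq2 (1.60).

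Serpina3c, known as the kallikrein-binding protein, had 2 and 1 reads with vehicle against 15 and 34 with busulfan among wt mice, and 2 and 1 with vehicle against 11 and 14 with busulfan among dcat mice. Serpina3g, known as an intracellular inhibitor of cathepsins, had 2 and 0, 16 and 48, 0 and 1, and 11 and 16 reads in the same order. Their pooled ratios of busulfan over vehicle were 10.9 (3.51 to 54.5, edgeR adjusted p = 0.000279) and 21.3 (5.66 to 180, edgeR adjusted p = 5.73e-05) in wt. In dcat they were 8.39 (2.56 to 43.4, edgeR adjusted p = 0.00347) and 27.2 (4.48 to 1113, edgeR adjusted p = 0.000858), the former called no longer without dcat vehicle replicate 2 (log2 fold change 1.34) or with DESeq2 (2.58). Among the 4 A3 transcripts the closest pair, Serpina3n and Serpina3c, was 79.3% identical over 2089 aligned bases. The closest annotated transcript of another gene was 88.6% identical to that of Serpina3g (Serpina3f) and 85.6% to that of Serpina3c (Serpina3k), so that reads of these 2 may be shared with copies not in the tables and their values are uncertain.

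Serping1 encodes the C1 inhibitor, which limits complement. It had 2 and 1 reads with vehicle against 23 and 47 with busulfan among wt mice, and 1 and 3 with vehicle against 11 and 13 with busulfan among dcat mice. Its pooled ratio was 15.5 in wt (exact 95% counting interval 5.10 to 77.1, edgeR adjusted p = 2.33e-05) and 6.04 in dcat (2.08 to 23.9, edgeR adjusted p = 0.00507), the latter not called without dcat vehicle replicate 2 (log2 fold change 2.25) or with DESeq2 (2.38). Serpinb1a, an intracellular inhibitor of neutrophil elastase, had 2 and 1, 12 and 12, 0 and 1, and 15 and 8 reads in the same order. Its pooled ratio was 5.33 in wt (1.62 to 27.6, edgeR adjusted p = 0.0108) and 23.2 in dcat (3.76 to 954, edgeR adjusted p = 0.000891). Like Serping1, Serpinb1a met the filter only in busulfan groups, so that the p-values of both do not test their direction. The wt call was lost without wt vehicle replicate 2 (log2 fold change 2.01), without wt busulfan replicate 1 (2.12) and with DESeq2 (2.31), and the dcat call without dcat vehicle replicate 2, which left 0 vehicle reads.

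In dcat testes, 11 of the 13 transcripts tested were higher after busulfan, where 31.3% of all transcripts were, and 1 was lower, where 31.4% were. Among all transcripts that met the filter only in busulfan groups 61.1% were higher in dcat. DESeq2 called 11 of 13 in wt and 9 of 13 in dcat, and without dcat vehicle replicate 2 the dcat count was 8. The median log2 fold change over all 15 in dcat was 2.70, or 2.52 with Serpina3n at the bound set by its 0 vehicle reads, against 0.14 over all transcripts. As in wt, this median is only a description. Scaling by RLE in place of TMM lowered the median over all transcripts to -0.03 in wt and -0.08 in dcat, and kept the sign of all 15 in both, with Cstdc2 in dcat moving from 0.30 to 0.08.

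**Figure D3:**
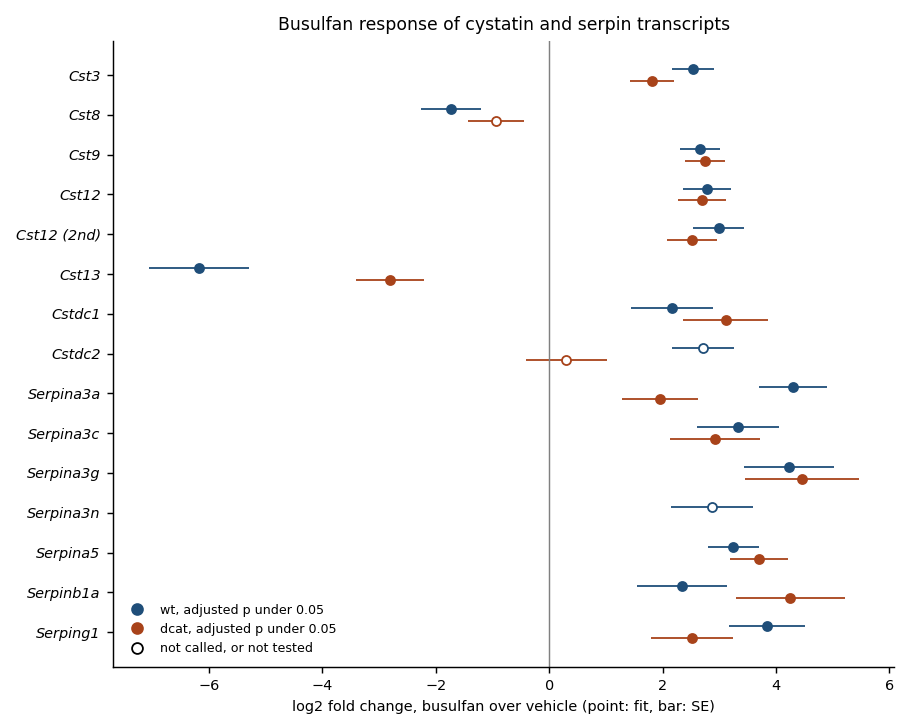
Log2 fold change of busulfan over vehicle in wt (blue) and dcat (orange) testes for each transcript, as the edgeR fit with its SE. Filled points had an adjusted p under 0.05 and open points did not or were not tested. All points except those of Cst8 and Cst13 lie above 0, Cstdc2 in dcat lies at 0.30, and Serpina3n in dcat, with 0 vehicle reads, is not drawn.

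The 2 genes that chose the set had more reads with busulfan than with vehicle among wt mice, and few reads with either among dcat mice. Both met the filter only in the wt busulfan group, so that this pattern was partly set by their presence in the tables. Cstdc2, a gene with a cystatin domain between Cst9 and Cst3 (chromosome 2, 148846711 to 148850934, minus strand, 3 exons), had 96.8 and 42.9 CPM with vehicle against 393 and 490 with busulfan among wt mice, and 33.2 and 63.9 with vehicle against 48.2 and 86.9 with busulfan among dcat mice. These rest on 5 and 3, 30 and 52, 1 and 8, and 3 and 8 reads. The dcat busulfan libraries overlapped the vehicle libraries of both genotypes. The log2 fold change of busulfan over vehicle was 2.71 (SE 0.55) in wt and 0.30 (SE 0.72) in dcat, and that of dcat over wt after busulfan was -2.63 (SE 0.51).

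Serpina3n encodes a secreted serpin of the acute-phase response (chromosome 12, 104406729 to 104414329, plus strand, 5 exons). It had 0 and 3 reads with vehicle against 11 and 24 with busulfan among wt mice, and 0 and 0 with vehicle against 2 and 2 with busulfan among dcat mice. After busulfan this was 144 and 226 CPM in wt and 32.1 and 21.7 CPM in dcat testes. The pooled ratio of wt over dcat after busulfan was 7.39 (exact 95% counting interval 2.64 to 28.6), and that of busulfan over vehicle in wt was 7.77 (2.45 to 39.5). Both ratios use busulfan libraries that chose the gene. Their intervals cover counting error and not the spread between mice, and are no test. In dcat the 4 busulfan reads against 0 after vehicle gave at least 1.34-fold more, against a floor of 3 reads over the group.

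The rule set no threshold, and the other members are given in the order of their difference. Serpina3a was lower in dcat than in wt after busulfan by 2.11 on the log2 scale (SE 0.45), Serping1 by 1.26 and Cst3 by 1.12. Serpina3g (-0.95), Serpina3c (-0.69) and Serpina5 (-0.48) were lower by less, while Cst12 (-0.07), Cst9 (0.21), Cstdc1 (0.21) and Serpinb1a (0.20) overlapped between genotypes. Cst8 (0.61) overlapped as well, and Cst13 stood at a pooled ratio of 14.2 (exact 95% counting interval 2.10 to 607), with 11 of its 12 dcat reads in replicate 2. In all, 8 transcripts had both dcat libraries below both wt libraries, where 14.4% of all transcripts did, and 1 had both above, where 29.7% did. Since this contrast chose the set, nothing is read from these counts.

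Several marker lists moved with the genotype among the busulfan libraries. The Leydig sum was 43859 and 49235 CPM in wt against 28512 and 24126 in dcat, and the Sertoli sum 26933 and 26381 against 23243 and 15905. The Leydig list holds Insl3, whose transcripts the study reports as lower in dcat than in wt testes after busulfan. The sum without Insl3 was not computed. The erythroid markers, 2 measured of 5 (Hba-a2 and Hbb-bs), summed to 924 and 771 CPM in wt and 0 and 20.7 in dcat, and the macrophage markers, 3 measured of 8 (Cd74, Lyz2 and C1qc), to 954 and 1074 against 878 and 703. With vehicle the erythroid sums were already 177 and 291 CPM in wt and 135 and 15.5 in dcat. The late spermatid sum went the other way, as given above. After busulfan the peritubular marker Acta2 overlapped, at 469 and 502 CPM in wt against 390 and 548 in dcat. The spermatocyte marker Sycp3 (90.8 and 113 against 97.6 and 228) and the round spermatid sum (30.3 and 139 against 130 and 321) overlapped as well. The part of these lists in the lower counts of Cstdc2, Serpina3n and Serpina3a and in the higher counts of Cst13 was not tested.

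The transcripts whose counts were most like those of the pair were found by Pearson's r of log2(CPM + 1) over the 8 libraries, which share depth and treatment. For Cstdc2 they were Erp29 (r = 0.89), Uba52rt (0.85) and Eif4a1 (0.84) among 1994 transcripts with a mean of at least 10 reads. For Serpina3n they were Tmed7 (0.95), Wnt6 (0.94) and S100a1 (0.93) among 1995. Serpina3n had only 0 to 24 reads a library, and the 8 libraries include the busulfan libraries that chose both genes. These r values are the highest of many and a description only. Tmed7, like Serpina3n, had more reads in the wt busulfan libraries (12 and 35) than in any vehicle library (1 to 8), but in dcat busulfan libraries it kept 12 and 15 reads.

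In vehicle testes 0 of the 15 transcripts differed between dcat and wt by edgeR and 0 by DESeq2 at the adjusted threshold, where 0% of all transcripts did. At an unadjusted edgeR p under 0.05 there were 0 of the 15 and 65 of all 2783 transcripts. Serpina3n, with 0 and 3 reads in wt and 0 and 0 in dcat, stood at an unadjusted edgeR p of 0.05003. The adjusted p was 1.0 for each of the 15. Cst9 had a log2 fold change of 0.12 (SE 0.40), Cst13 of 0.06 (SE 0.48), Cst12 of 0.02 (SE 0.51), Cst3 of -0.40 (SE 0.41) and Cst8 of -0.18 (SE 0.48). Cstdc2 stood at -0.22 (SE 0.77), from 8 reads in wt and 9 in dcat libraries. The direction of Cst13, Cst3 and Cst8 turned when single libraries were left out, and for most serpins the vehicle libraries held 0 to 3 reads, too few to show a difference at this depth.

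Tails could be compared for fewer members, those with at least 10 reads in every library of a contrast. Cst3 tails averaged 145 and 149 nt with vehicle against 120 and 129 with busulfan among wt mice, and 136 and 151 with vehicle against 121 and 114 with busulfan among dcat mice. Both busulfan groups lay below both vehicle groups. The difference was -22.3 nt in wt (SE 6.33, limma adjusted p = 0.0165) and -26.0 nt in dcat (SE 8.13, limma adjusted p = 0.0407), beside medians of -19.9 and -17.2 nt over all transcripts tested. With each library centred on its median the Cst3 difference came to 0.87 nt among wt and -3.23 nt among dcat mice, and both calls were lost. The wt call was also lost without wt vehicle replicate 1 (-24.7 nt), wt vehicle replicate 2 (-19.9 nt) or wt busulfan replicate 1 (-17.6 nt), and the dcat call without dcat vehicle replicate 2 (-18.3 nt), dcat busulfan replicate 1 (-29.3 nt) or dcat busulfan replicate 2 (-22.7 nt).

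Cst8 tails were 159 and 162 nt in wt vehicle and 108 and 113 nt in wt busulfan libraries, the latter over 10 and 18 reads. The change was -50.4 nt (SE 11.3) with a limma adjusted p of 0.00633. The call was lost after centring (-27.2 nt) and without wt vehicle replicate 1 (-52.1 nt). Tails of 30 to 120 nt made up 13.7% ± 3.23 of Cst8 reads with vehicle and 52.8% ± 3.93 with busulfan in wt (SD, n = 2 libraries). The dcat vehicle library of replicate 1 held only 5 Cst8 reads, so that no dcat test was made. Its tails there were 161 and 165 nt after vehicle and 139 and 133 nt after busulfan.

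Cst9 had long tails in all groups. They averaged 213 and 196 nt with vehicle against 209 and 211 with busulfan among wt mice, and 204 and 220 with vehicle against 202 and 198 with busulfan among dcat mice, and the groups overlapped in wt. The difference was 5.74 nt in wt (SE 7.61, limma adjusted p = 0.605) and -11.8 nt in dcat (SE 7.75, limma adjusted p = 0.274). Relative to the median of each library, Cst9 tails were longer after busulfan in wt, by 28.9 nt, which passed the threshold, and by 10.97 nt in dcat, which did not. Of the 3 cystatin transcripts tested in wt, 2 had shorter tails, where 35.5% of 527 transcripts did, and of 2 tested in dcat 1 did, where 30.2% of 441 did.

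**Figure D4:**
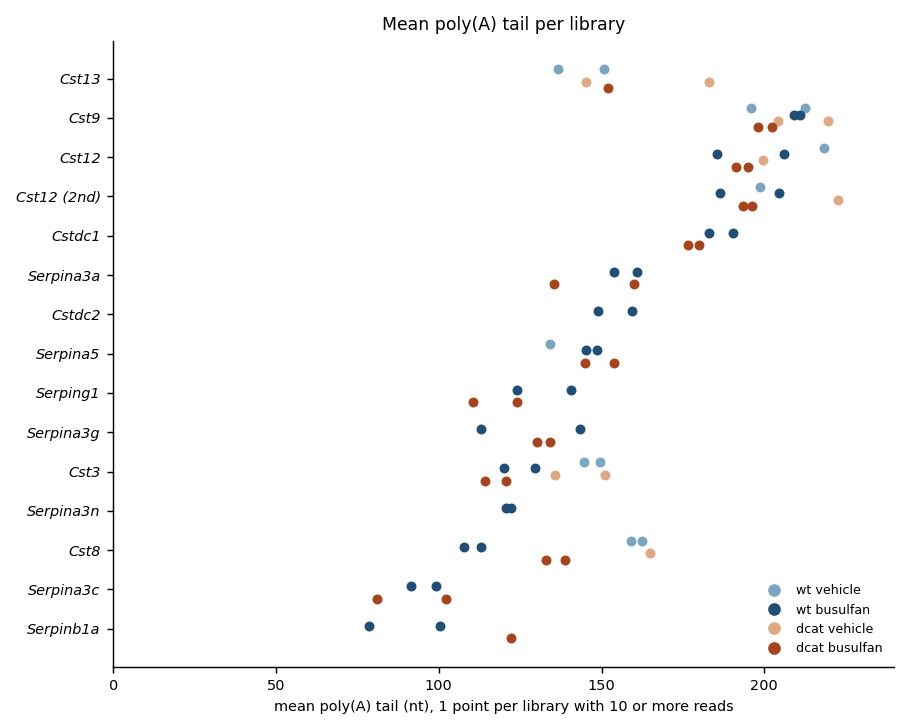
Mean poly(A) tail in nt of each transcript, with 1 point for each library that had 10 or more of its reads, ordered by the mean in wt busulfan libraries and with Cst13, which had too few reads there, on top. Cst9 and Cst12 lie near 200 nt in both genotypes, Serpina3c and Serpinb1a near 90 nt in wt, and Cst3 and Cst8 lie lower in busulfan than in vehicle libraries.

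After busulfan the members spread over more than 100 nt. In wt busulfan testes the mean tail was 210 ± 1.19 nt for Cst9, 196 ± 14.6 nt for Cst12, 187 ± 5.05 nt for Cstdc1, 157 ± 5.04 nt for Serpina3a, 154 ± 7.34 nt for Cstdc2 and 147 ± 2.33 nt for Serpina5 (SD, n = 2 libraries). It was 121 ± 0.930 nt for Serpina3n, 110 ± 3.82 nt for Cst8, 95.4 ± 5.36 nt for Serpina3c and 89.4 ± 15.4 nt for Serpinb1a. The paralogs Serpina3a and Serpina3c thus differed by more than the spread between their libraries, with 28.7% and 70.1% of reads in tails of 30 to 120 nt. Cst9 had 5.73% of its reads in that class.

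**Figure D5:**
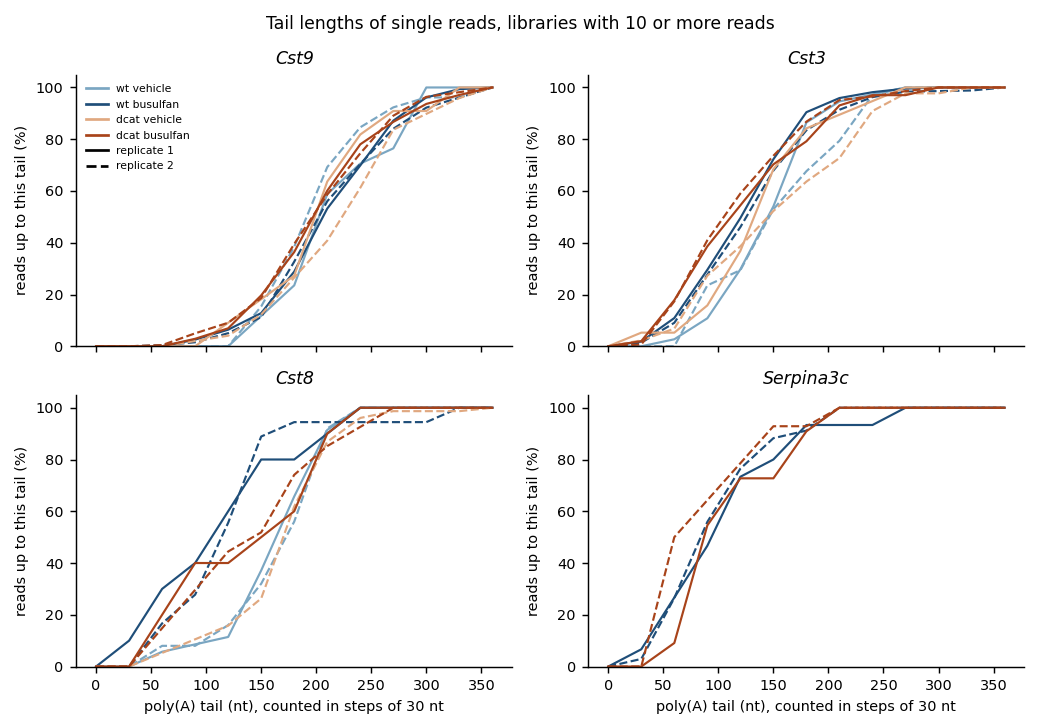
Share of reads in percent with a tail up to the length on the axis, in nt, in steps of 30 nt and with longer tails counted at the end, for each library with 10 or more reads of the gene. For Cst9 the curves of all groups lie close together, for Cst3 and Cst8 the busulfan curves lie above the vehicle curves at 120 nt, and for Serpina3c most reads lie below 120 nt in both genotypes.

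Between genotypes after busulfan, tails are described without a test. Over the 11 transcripts with enough reads the difference of dcat minus wt had a median of -3.83 nt, against 2.85 nt over the 1188 transcripts compared. Its extremes were Serping1 and Cst8. Serping1 tails averaged 124 and 141 nt in wt and 110 and 124 nt in dcat (-15.2 nt, SE 12.04). The difference ran from -23.4 to -6.92 nt as single libraries were left out. These ends of the range came without wt busulfan replicate 1 and without wt busulfan replicate 2. Cst8 stood at 25.5 nt (SE 13.1). Cst12 (-2.55 nt), Cst9 (-9.86 nt), Cst3 (-7.28 nt) and Serpina5 (2.51 nt) lay within 10 nt. Cstdc2 had too few dcat reads for this comparison. Its 82 wt reads averaged 149 and 159 nt by library, and its 3 and 8 dcat reads 99.1 and 118 nt. The 35 wt reads of Serpina3n averaged 121 and 122 nt, and its 2 and 2 dcat reads 151 and 45.3 nt. In vehicle testes the differences of dcat minus wt were 20.5 nt for Cst13 (SE 13.2), 7.69 nt for Cst9 (SE 10.1) and -3.61 nt for Cst3 (SE 9.02), each with a limma adjusted p of 0.989, and 0% of 720 transcripts were called.

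Lysosomal proteases, serine proteases and inhibitors of other families were listed for comparison. Which of these proteases the cystatins and serpins act on was not examined. Their genes passed the same filter, and 4 of the 6 lysosomal proteases, 4 of the 7 other inhibitors and 4 of the 8 serine proteases met it only in busulfan groups, and 1 other inhibitor and 4 serine proteases only in vehicle groups, so that the directions of these were largely set by it. Beside each count stand the 35.4% higher and 38.3% lower of all transcripts in wt and 31.3% and 31.4% in dcat. All 6 lysosomal proteases measured of 13 (Ctsb, Ctsd, Ctsl, Ctso, Ctsz and Lgmn) were higher after busulfan in both genotypes, with a median log2 fold change of 3.77 in wt (3.65 with Ctsz at its bound) and 2.71 in dcat. Ctsb, which encodes the cysteine protease cathepsin B, had 8 and 4 reads with vehicle and 92 and 170 with busulfan in wt (log2 fold change 3.79, edgeR adjusted p = 1.78e-06). Lgmn, the legumain gene, had a log2 fold change of 3.85 in wt (edgeR adjusted p = 4.61e-06) and 3.89 in dcat (edgeR adjusted p = 7.17e-05). Ctsz had 0 reads in both wt vehicle and 14 and 21 in the wt busulfan libraries, at least 7.77-fold higher.

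Ctsb and Ctsl were the 2 that met the filter in groups of both kinds. Of the 8 serine proteases measured of 30, the 4 that met it only in vehicle groups were lower after busulfan and the 4 that met it only in busulfan groups were higher, in both genotypes. Those lower were the germ cell proteases Acr (acrosin), Prss37, Prss39 and Prss55, and those higher were Htra1 and the kallikreins Klk1b21, Klk1b24 and Klk1b27. Acr went from 11 and 14 reads in wt vehicle to 0 and 1 in wt busulfan libraries, and Klk1b24 from 1 and 1 to 19 and 40. The median was -0.94 in wt (-0.95 with Htra1 at its bound) and 0.46 in dcat (-0.17 with Htra1 at its bound). Of the 7 other inhibitors measured of 26, 5 were higher (Timp2, Wfdc10, Eppin, Spint2 and App) and Spink2 was lower in both genotypes. Of these, Timp2 alone met the filter in groups of both kinds. Pebp1 also met it in groups of both kinds and was called in neither genotype. The median over the 7 was 1.73 in wt and 1.80 in dcat. Spink2, an inhibitor of acrosin, went from 58 and 57 reads in wt vehicle to 4 and 11 in wt busulfan libraries (-3.55, edgeR adjusted p = 3.16e-06). The relative Cstb, an intracellular inhibitor of cathepsins, rose by 2.83 in wt (edgeR adjusted p = 4.29e-05) and 2.74 in dcat (edgeR adjusted p = 0.000233). Cstb met the filter only in busulfan groups, so that its direction too was largely set by it. In vehicle testes 0 genes of these lists differed between dcat and wt.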

How the data were processed

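Poly(A) RNA of whole testes was read by Nanopore direct RNA sequencing in 8 libraries. The deposited table of raw counts per transcript came from reads that Guppy called and Minimap2 placed on GRCm38 transcripts of GENCODE for the authors (the submitters' processing notes give minimap2 2.20-r1061 and mm10) and that Deeplexicon demultiplexed, keeping passing tails and confident barcodes. The deposited tail of each read, as a length in nt, is an estimate the authors obtained with Nanopolish. Transcripts needed 10 or more reads in each library of some group. Deposited log2 fold changes and adjusted p-values of the authors' own comparisons were not used.

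The quasi-likelihood F test of edgeR 4.0.16 (R 4.3.3), on TMM-scaled counts of all 8 libraries as 4 groups, served for counts. Mean tails per transcript and library were compared with limma 3.58.1 (eBayes, its trend following log2 mean reads) where each of the 4 libraries of a contrast had 10 reads. A library of another group with fewer reads was set missing. DESeq2 1.42.0 and other settings served as alternatives. Tests were two-sided, adjusted by Benjamini-Hochberg over all transcripts, with a threshold of 0.05, and tested on simulated data. CPM of members are TMM-scaled, and those of marker lists are not. Counting intervals and the limit of 3 reads for a count of 0 cover counting error only. Each gene stands for its transcript with the most reads over the 8 libraries. All cystatins and serpins are accounted for, and from each protease list up to 3 genes per direction by fold change are named with values, others being named only. For Cstdc2 and Serpina3n, the 3 most alike transcripts by correlation are named. The genes and lists were chosen with earlier results of these data known.

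The replicate numbers pair the samples because the labels say that each of the 2 multiplexed libraries held 1 mouse of every group. Deviations from the group means of same-numbered samples correlated at -0.109 to 0.195 over the 6 pairs of groups (2037 transcripts).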

Additional observations from a re-analysis of the deposited data

How the results depend on the processing

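For the counts, 13 of 13 transcripts called in wt and 12 of 13 in dcat stayed within 1.5 times that number, and the vehicle comparison of genotypes at 0, under every alternative run (RLE scaling, DESeq2, filterByExpr, only the libraries of the contrast, counts summed per gene, the replicate block, and each library left out). With the replicate block 13, 12 and 0 were called, and the block changed no call of counts or tails. With 1 library left out in turn, Cst8 in dcat ranged from -1.49 to 0.56 (the latter without dcat vehicle replicate 2), and between genotypes after vehicle Cst13 ranged from -0.33 to 0.90, Cst3 from -0.65 to 0.12 and Cst8 from -1.56 to 0.39. Without dcat vehicle replicate 2, 8 transcripts were called in dcat. In dcat, Cst8 was called with RLE scaling (-1.18), without dcat vehicle replicate 1 (-1.36) and without dcat busulfan replicate 2 (-1.49). Tails were less stable. The 2 tail calls in wt became 1 with a minimum of 20 reads (1 transcript tested), with centred libraries (Cst9, longer) and without the trend, and 0 to 2 with 1 library left out. The 1 call in dcat became 0 with a minimum of 5 reads, with centred libraries and with only the 4 libraries of the contrast (chosen after seeing the data), and 0 to 1 with 1 library left out. Centring turned Cst3 in wt to 0.87 nt and Cst9 in dcat to 10.97 nt. With 1 library left out in turn, Cst9 ranged from -2.57 to 14.0 nt in wt, and between genotypes after vehicle Cst3 from -11.3 to 4.06 nt and Cst9 from -0.62 to 15.996 nt. The median tail difference between genotypes after busulfan (-3.83 nt) ranged from -9.70 to 0.0048 nt, the latter without dcat busulfan replicate 2. The causes were not tested. With 2 libraries a group and 0 to 3 vehicle reads for most serpins, depth limits the size of their changes.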
